A study of Homo sapiens with 14 samples.

Results

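The 8 genes described here encode the classical members of activator protein 1 (AP-1): FOS, FOSB, FOSL1 and FOSL2 of the FOS family, JUN, JUNB and JUND of the JUN family, and ATF3 of the ATF family. They were chosen by name, as early response genes with an input from progestins, out of 19821 protein-coding genes of the gene table. For each gene, every peak of 4 lists that reached the RefSeq gene span or the 50 kb on either side of it was taken, and such peaks are called regions below. The cells were T47D, an established human breast cancer line with oestrogen and progesterone receptors, given the ethanol vehicle or progesterone (P4) for 1 h. Chromatin immunoprecipitation used an antibody against the progesterone receptor (PR), a hormone-activated transcription factor, or against POLR3A, which forms the catalytic core of RNA polymerase III, the enzyme that makes tRNAs and other short RNAs. Each of the 4 combinations of antibody and treatment had 3 replicate libraries that share 1 peak list, and each treatment had 1 pooled input library, 14 libraries in all. A list thus has no replicate check, no test between treatments was made, and values are set side by side. The lists give no expression, so the identity of the cells was not checked against marker genes.

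AP-1 is a family of dimers that form through a leucine zipper and bind DNA through an adjoining basic region. JUN proteins pair with each other or with FOS proteins, while FOS proteins need a partner. FOS, FOSB, JUN, JUNB and ATF3 are known as immediate early genes, switched on within minutes by growth factors, stress or hormones without new protein synthesis, and JUND is present in most resting cells. FOSL1 and FOSL2, also called FRA-1 and FRA-2, are usually induced later. In breast cancer cells, the receptor for progesterone is known to act both through its own DNA element and together with factors already bound, AP-1 among them.

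Promoter sequences are shown for the members whose start was reached by a region of at least 1 list, so that the positions given further on can be placed. RefSeq (GRCh38.p14) gave an entry for 7 of the 8 genes, with 2 starts for ATF3 and none for FOSL1. Printed 5′ to 3′ on the strand of the gene are the 250 bases before the start of FOS (chr14:75278578-75278827, plus strand), FOSL2 (chr2:28392608-28392857, plus strand), JUN (chr1:58784048-58784297, minus strand), JUNB (chr19:12791236-12791485, plus strand) and JUND (chr19:18281623-18281872, minus strand). Capitals mark TGACG or its complement CGTCA, which together make up TGACGTCA, the palindrome bound by ATF and CREB proteins, where they overlap.
FOS: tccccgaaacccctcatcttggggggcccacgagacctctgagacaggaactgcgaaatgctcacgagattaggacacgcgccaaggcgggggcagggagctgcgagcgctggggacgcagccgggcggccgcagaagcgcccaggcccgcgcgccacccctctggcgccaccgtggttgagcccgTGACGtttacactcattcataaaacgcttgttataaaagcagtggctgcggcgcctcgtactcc
FOSL2: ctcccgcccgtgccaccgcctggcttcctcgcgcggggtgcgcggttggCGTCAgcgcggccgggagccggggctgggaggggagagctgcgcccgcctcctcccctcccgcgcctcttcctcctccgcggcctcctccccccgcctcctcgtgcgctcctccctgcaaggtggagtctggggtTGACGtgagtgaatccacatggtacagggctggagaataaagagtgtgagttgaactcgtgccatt
JUN: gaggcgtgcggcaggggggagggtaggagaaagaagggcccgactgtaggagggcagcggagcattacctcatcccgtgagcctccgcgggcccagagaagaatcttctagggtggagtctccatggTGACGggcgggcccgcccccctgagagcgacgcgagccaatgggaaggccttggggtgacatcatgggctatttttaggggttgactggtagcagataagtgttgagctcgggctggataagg
JUNB: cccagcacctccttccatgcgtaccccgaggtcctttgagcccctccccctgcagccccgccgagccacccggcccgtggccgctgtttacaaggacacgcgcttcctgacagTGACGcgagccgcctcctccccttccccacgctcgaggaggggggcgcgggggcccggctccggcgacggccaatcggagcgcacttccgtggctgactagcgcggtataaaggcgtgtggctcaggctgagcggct
JUND: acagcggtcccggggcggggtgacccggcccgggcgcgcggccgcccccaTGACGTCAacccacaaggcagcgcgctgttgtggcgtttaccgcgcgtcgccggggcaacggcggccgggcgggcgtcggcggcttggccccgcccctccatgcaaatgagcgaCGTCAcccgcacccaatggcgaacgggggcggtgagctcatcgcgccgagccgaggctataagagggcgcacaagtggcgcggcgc

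The complete palindrome TGACGTCA occurred once among the members, 200 to 193 bases before the start of JUND, and in 2.26% of the 22132 promoters of protein-coding genes, each searched on both strands over 300 bases. The shorter TGACG, a search added after the sequences had been seen, occurred in 6 of the 8 promoters of the 7 genes with an entry. It occurred in 27.9% of all promoters. Among the members it lay 64 to 60 bases before the start of FOS and 60 to 56 bases before that of FOSB. The match in JUN lay 123 to 119 bases and that in JUNB 137 to 133 bases before the start, and FOSL2 had 2 matches. JUND had 3, of which 2 form the palindrome. ATF3 held none at either start. The AP-1 element TGANTCA occurred only in FOSL2, 4 to 10 bases after its start, and in 6.15% of all promoters. The hormone receptor half-sites ACANNNTGT, the core of the progesterone response element, occurred in none of the 8 promoters and in 3.96% of all. A CC and a GG with 6 bases between them, a loose form of the serum response element, occurred in all 8 promoters, but also in 84.6% of all promoters. Such matches describe the letters and are not binding sites. The promoters of JUND (77.0% G and C) and JUNB (71.0%) were the richest in G and C, ATF3 was the poorest (48.0% and 46.3%), and the median of all promoters was 62.3%.

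All 8 genes had PR regions under both treatments. A PR region lay in the window of 74.6% of all protein-coding genes under vehicle and of 90.5% under P4, so that presence alone does not set the family apart. A POLR3A region lay in the windows of all 8 genes under vehicle, against 68.7% of genes, and of 7 genes under P4, against 71.9%. The gene without one was FOSL2.

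The genes differed in how many regions surrounded them. Under P4 the PR list had 30 regions around FOSL1, 27 around FOS, 25 around ATF3 and 17 around FOSB. JUNB and JUND had 14 each, FOSL2 had 8 and JUN had 3. Under vehicle, the PR list had 10 around FOS, 9 each around FOSL1 and JUNB, 6 around JUND, 5 around FOSB, 3 each around JUN and ATF3 and 2 around FOSL2. The FOS family therefore spanned nearly the whole range within 1 subfamily, and JUN stood lowest under P4. ATF3 stood near the lower end under vehicle and near the top under P4. The median of the members was 5.5 under vehicle and 15.5 under P4, and that of all protein-coding genes was 2 and 8 (quartiles 0 to 5 and 3 to 16). Per 100 kb of window, the medians of the members were 5.28 and 14.8, and those of all genes 1.51 and 5.28. FOS had more PR regions under P4 than 90.1% of genes, FOSL1 than 92.6% and ATF3 than 88.1%, whereas JUN had more than 23.4% of genes.

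**Figure D1:**
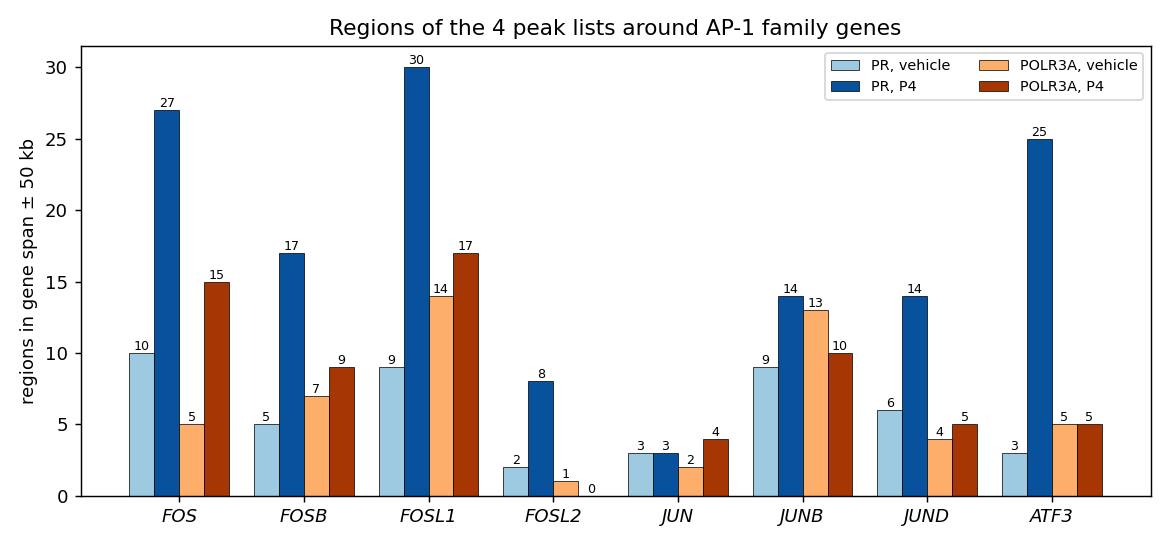
Regions of each peak list (vertical axis, number) in the span of each AP-1 gene with 50 kb on either side, with 1 bar per list. PR bars under P4 reach 30 at FOSL1 and stay at 3 at JUN, and FOSL2 has no POLR3A region under P4.

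For POLR3A, FOSL1 had 14 regions under vehicle and 17 under P4, and JUNB had 13 and 10. FOSB had 7 and 9, FOS 5 and 15, ATF3 5 and 5, and JUND 4 and 5. The fewest were around JUN, with 2 and 4, and FOSL2, with 1 and 0. FOS was thus the member whose POLR3A count differed most between the lists. The median of the members was 5 under vehicle and 7 under P4, and that of all genes was 2 under each treatment.

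**Figure D2:**
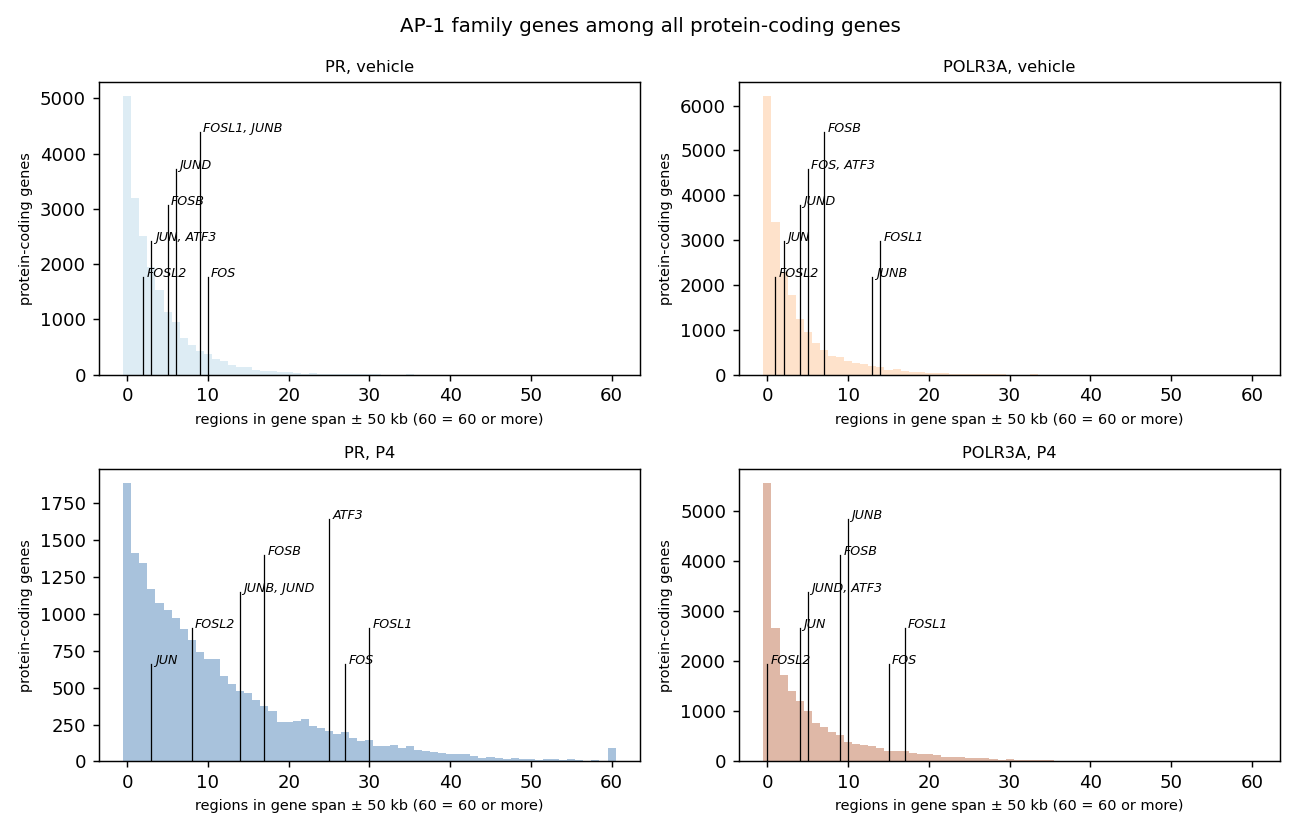
Distribution of the number of regions per window (horizontal axis) over all protein-coding genes (vertical axis, number of genes), by list, with a line at each AP-1 gene. FOS, FOSL1 and ATF3 lie in the right tail of the PR P4 list at 27, 30 and 25, while JUN lies left of the median gene at 3.

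The windows have different contents. FOS, FOSL2 and JUN were alone in their windows, with no other protein-coding gene. FOSL1 shared its window with 10 others, JUNB with 8, FOSB and JUND with 4 each, and ATF3 with 1. In the PR P4 list, the member was the nearest protein-coding gene for 74 of the 138 regions, or 53.6%. For POLR3A under P4 this held for 33 of 65, or 50.8%. In the PR P4 list, it held for 5 of 30 regions at FOSL1, 1 of 14 at JUNB and 5 of 17 at FOSB. At JUND it held for 8 of 14, at ATF3 for 18 of 25 and at FOSL2 for 7 of 8. At FOS and JUN it held for all. Most regions counted around FOSL1, JUNB and FOSB were thus nearer to other genes.

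More PR regions were listed under P4 than under vehicle at 7 of the 8 genes, all but JUN, and at 87.2% of all protein-coding genes. In the 8 windows together, the PR list held 47 regions under vehicle and 138 under P4, a ratio of 2.94, close to the 2.86 of the whole lists (38933 and 111515 regions). At a −log10 q of at least 5 in both lists the windows held 21 and 61, and at a limit of 10 they held 9 and 31. With the PR P4 list reduced to its 38933 regions of highest −log10 q, the direction was not kept. That cut kept P4 regions down to a −log10 q of 7.39 and vehicle regions down to 1.31. Weak regions thus stayed in the vehicle list alone. After the cut the windows held 39 PR regions under P4, and FOSB, FOSL2 and ATF3 had more than under vehicle. FOS (10 under vehicle, 6 under P4), FOSL1 (9 and 5), JUN (3 and 2) and JUNB (9 and 2) had fewer, and JUND was equal with 6. How much of the PR gain at these genes follows the longer list was not tested, since the depth of the libraries is unknown.

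For POLR3A, FOS, FOSB, FOSL1, JUN and JUND had more regions under P4, 5 of 8, against 51.3% of all genes. FOSL2 and JUNB had fewer, 2 of 8, against 16.2% of genes. The sums were 51 under vehicle and 65 under P4, a ratio of 1.27, where the whole lists had 1.64. At equal list length, FOS still had more POLR3A regions under P4 (5 and 12), and no other member did. There the lowest −log10 q kept was 1.30 under vehicle and 2.86 under P4.

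Most regions around these genes were weak by the authors' scores, as were most regions of the whole lists. The −log10 q of a region states how significant its enrichment over the background was in the peak caller's model, after correction for multiple testing. The fold is the size of that enrichment. The −log10 q depends on depth as well as on the fold, and depth is unknown here. In the windows the median −log10 q was 4.28 and 4.58 in the PR lists (vehicle, then P4), against 5.75 and 4.87 in the whole lists. For POLR3A it was 3.40 and 3.46, against 3.53 and 3.22. The median fold was 3.63 and 3.46 for PR, against 3.78 and 3.55 in the whole lists. For POLR3A it was 3.72 and 3.50, against 3.50 and 3.28. A region among the strongest 10% of its list, a limit chosen after the values had been seen, lay near 7 of the 8 genes in the PR P4 list, all but JUNB, against 47.3% of all genes. In the PR vehicle list this held for FOS and JUND, 2 of 8, against 21.6% of genes. For POLR3A it held for FOSB alone under vehicle, against 11.8% of genes. Under P4 it held for FOS, FOSB, FOSL1 and JUNB, 4 of 8, against 19.5% of genes. The PR regions under P4 that counted for FOSB, FOSL1 and JUND were nearest to VASP, C11orf68 and LSM4, not to the member. Of the POLR3A regions that counted, that of FOSB lay over a tRNA gene in both lists. Under P4 that of FOSL1 was nearest to MUS81, and that of JUNB lay in the spans of both HOOK2 and JUNB. A window with more regions reaches a region of the strongest 10% more easily. Of the regions themselves, fewer than 10% were among the strongest 10% in each list: 2 of 47 (4.26%) and 12 of 138 (8.70%) for PR and 1 of 51 (1.96%) and 4 of 65 (6.15%) for POLR3A.

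**Figure D3:**
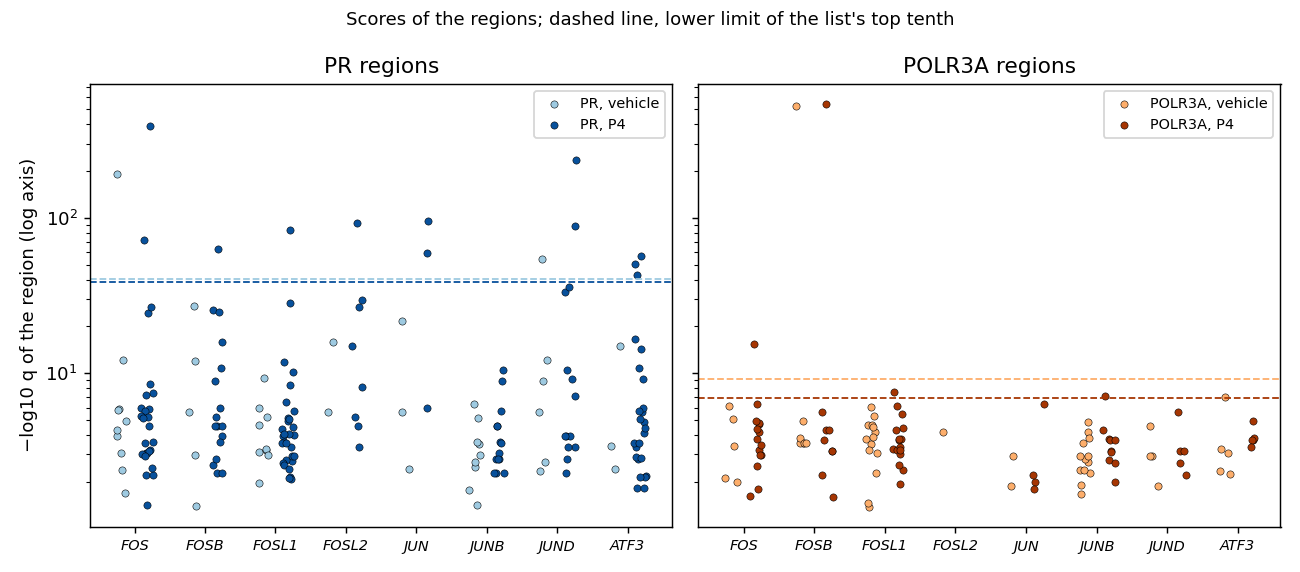
The −log10 q of every region (vertical axis, log scale) by gene for PR (left) and POLR3A (right), with a dashed line at the lower limit of the strongest 10% of each list, 40.7 and 38.8 for PR and 9.17 and 6.92 for POLR3A (vehicle, then P4). FOS and JUND hold the highest PR points, 392 and 235 under P4, and the single high POLR3A pair at FOSB, 525 and 543, lies over a tRNA gene.

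FOS, the founding gene of the FOS family, had the strongest PR region of all members. It lay 14.6 kb before the start, outside any protein-coding gene span, with FOS as the nearest coding gene (chr14:75263914-75265055 under P4). Its −log10 q was 392 with a fold of 48.5 under P4, rank 223 of 111515, and 192 with a fold of 29.6 under vehicle, rank 540 of 38933. POLR3A regions lay over the same place under vehicle (chr14:75264036-75264471, −log10 q 6.17, fold 4.45) and under P4 (chr14:75264013-75264314, −log10 q 15.5, fold 6.31). The 4 summits lay close together, at 14622 and 14639 bp before the start for PR and 14636 and 14659 bp for POLR3A. It was 1 of 4 merged sites, among 198 in all 8 windows, that were present in all 4 lists, and it had the highest PR score of those.

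Around that site, PR regions under P4 lay 19.4 kb before the start (−log10 q 71.8, with 12.2 under vehicle) and 24.2 kb before it (24.6, with 5.89 under vehicle). A region 7.69 kb after the start had 26.9 and was in the P4 list alone. Of the 15 POLR3A regions around FOS under P4, 13 overlapped a PR region under P4, against 50.5% over the whole lists. Of the 15, 10 lay between 12.2 and 27.4 kb before the start. The start of FOS had no PR region under vehicle within the printed 250 bases. Under P4 it had a PR region (chr14:75278575-75278762, −log10 q 5.22, summit 166 bp before the start) and a POLR3A region (chr14:75278588-75278927, 2.97, summit 191 bp before the start). Under vehicle, PR regions lay on either side, 663 bp before the start (5.79) and 356 bp after it (1.68). The FOS promoter regions were thus weak beside the site at 14.6 kb.

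**Figure D4:**
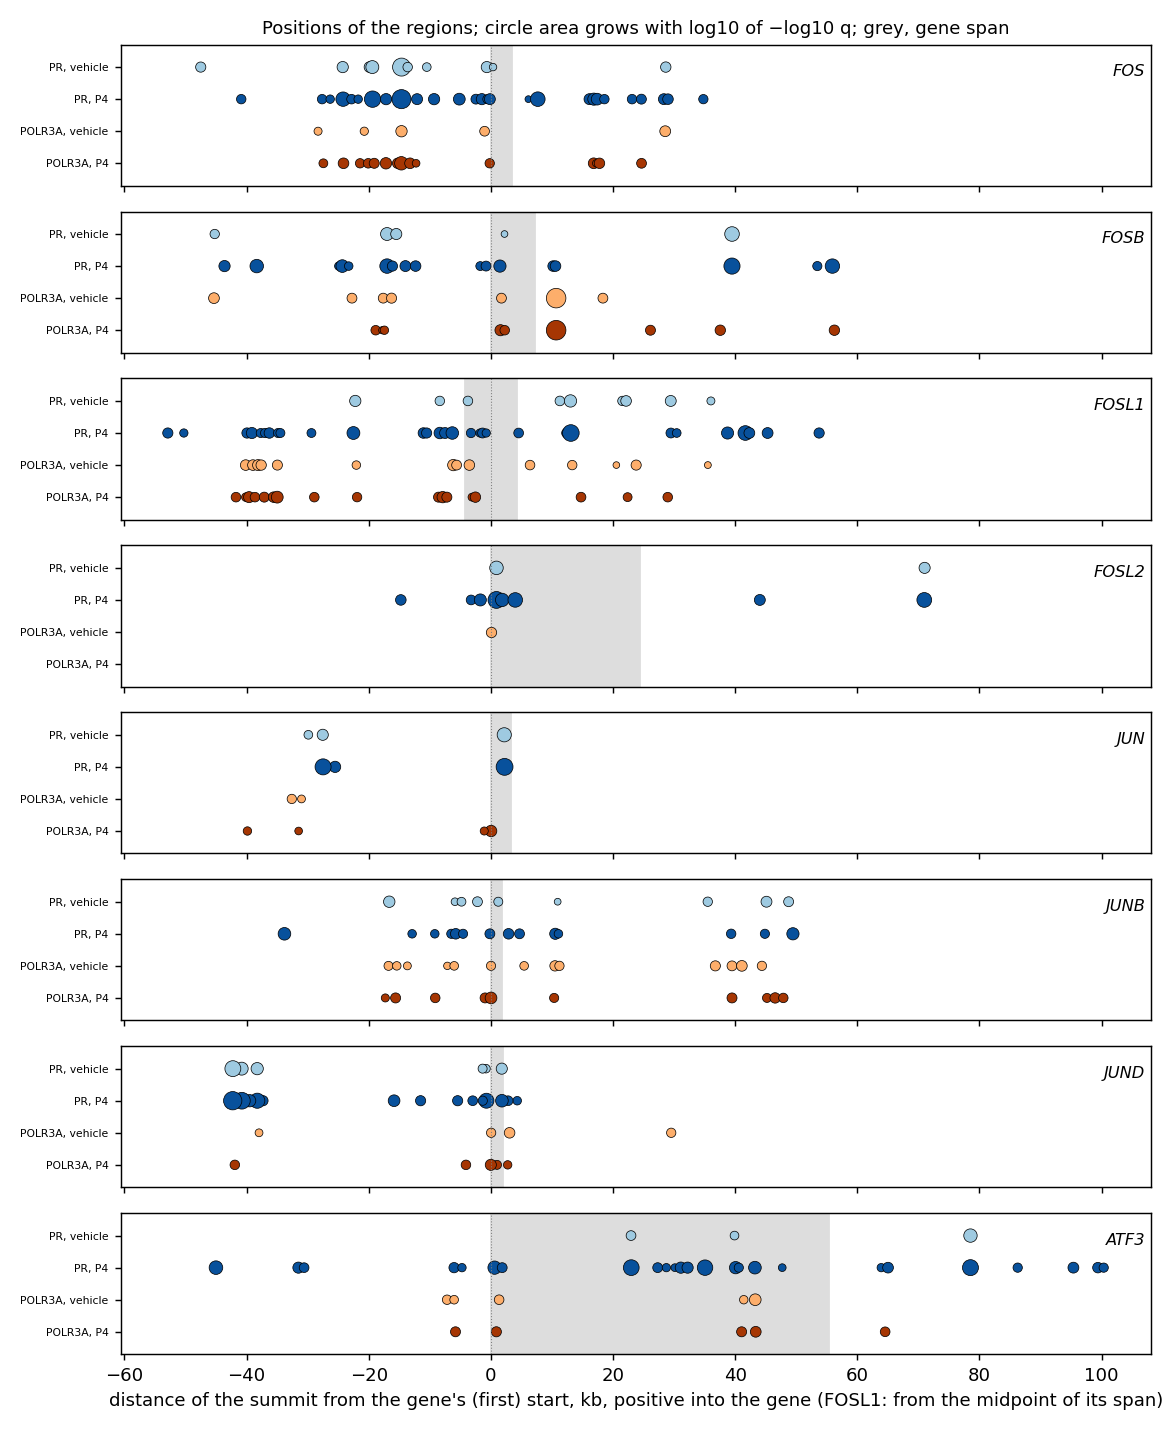
Summit positions of all regions relative to the start of each gene (horizontal axis, kb, positive into the gene; from the midpoint of the span for FOSL1, without regard to strand), 1 row per list, with larger circles for higher −log10 q and the gene span in grey. The strongest PR circles lie 14.6 kb before FOS and 42.3 kb before JUND, and those of FOSL2 and JUN lie inside the gene.

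FOSL2, whose protein FRA-2 takes the place of FOS in later dimers, had its strongest PR region within the gene, 910 bp after the start (chr2:28393580-28393929 under P4). The −log10 q was 93.1 with a fold of 18.9 under P4 and 15.9 with a fold of 6.95 under vehicle. The only other PR region under vehicle lay 71.0 kb after the start, nearest to PLB1 (5.64, and 29.8 under P4). Regions 1.84 kb and 3.99 kb after the start, both within the gene span, were in the P4 list alone (14.9 and 26.6). The single POLR3A region of FOSL2 was under vehicle and covered the start (chr2:28392696-28393088, −log10 q 4.19, summit 14 bp before the start). FOSL2 was the member with the fewest regions over all lists, yet its PR region after the start was among the stronger ones of the family.

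FOSB had its strongest PR region within the span of VASP, a gene of actin dynamics, 39.5 kb after the FOSB start (chr19:45507304-45507667). Its −log10 q was 63.2 under P4 and 27.1 under vehicle. A PR region 17.0 kb before the start, within the DNA repair gene ERCC1, had 25.7 and 12.0, and the merged site there was present in all 4 lists. Within FOSB itself, PR lay 2231 bp after the start under vehicle (1.39) and 1484 bp after it under P4 (8.92). POLR3A lay 1733 bp after the start under vehicle (3.53), and 1578 and 2269 bp after it under P4 (5.63 and 3.17). No list had a region over the FOSB promoter.

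The strongest POLR3A regions in any of the windows also lay near FOSB, 3.42 kb past the end of its span, over TRU-TCA1-1 (chr19:45478601-45478687). This gene encodes the selenocysteine tRNA, a transcript of RNA polymerase III. The POLR3A −log10 q there was 525 with a fold of 78.2 under vehicle and 543 with a fold of 78.0 under P4, with summits 41 and 40 bp from the midpoint of the tRNA gene. PR was present under P4 alone and weakly (−log10 q 4.59, fold 3.78, summit 61 bp from the midpoint). Without that locus, the strongest POLR3A regions of the windows were 7.05 at ATF3 under vehicle and 15.5 at FOS under P4.

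FOSL1, whose protein FRA-1 is studied in invasive breast cancer cells, had the most regions in the PR P4 list and in both POLR3A lists. Its strongest PR region lay 8.85 kb outside the gene span, nearest to C11orf68 (chr11:65909133-65909650 under P4), with −log10 q of 83.9 under P4 and 9.33 under vehicle. Within the span, PR had 1 region under vehicle (3.19) and 4 under P4, the highest at 3.59. POLR3A had 1 there under vehicle (4.53) and 2 under P4 (1.94 and 4.31). A PR region in the P4 list alone lay 301 bp outside the span, nearest to FOSL1 (3.36). With no promoter entry for FOSL1, whether a region reached its promoter was not assessed. The strongest POLR3A regions of the window were 6.11 under vehicle, outside the coding spans, and 7.54 under P4, in MUS81. Of the 17 POLR3A regions under P4, 10 overlapped a PR region under P4, against 50.5% over the whole lists. The strongest sites in the FOSL1 window were thus nearer to other genes than to FOSL1.

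JUN, which encodes the main partner of FOS and is known to be activated by its own product, had few PR regions, of which 2 of 3 under P4 and 0 of 3 under vehicle were among the strongest 10% of their list. The strongest lay within the gene span, 2244 bp after the start (chr1:58781661-58782249 under P4). It had a −log10 q of 95.9 and a fold of 20.0 under P4, and 21.8 and 8.25 under vehicle. The next lay 27.5 kb before the start, with 59.3 under P4 and 5.64 under vehicle. A region 25.5 kb before the start was in the P4 list alone (5.93), and 1 at 29.9 kb was in the vehicle list alone (2.42). JUN therefore had 3 PR regions in each list, of which 2 were at shared places.

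POLR3A was at the JUN start under P4 alone (chr1:58783700-58784103, −log10 q 6.34, fold 4.71), with its summit 37 bp after the start. Under vehicle, the 2 POLR3A regions of the window lay 31.0 and 32.6 kb before the start (1.87 and 2.93). None of the 4 POLR3A regions around JUN under P4 overlapped a PR region of that treatment. At FOS, 13 of 15 did, and over the whole lists 50.5% did. The JUN window held 3 PR regions under P4 and the FOS window 27. The difference between the genes was not tested.

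JUND had the second strongest PR site of the family, 42.3 kb before its start and just outside the span of LSM4, the gene of an RNA-binding protein (chr19:18323391-18324102 under P4). The −log10 q was 235 with a fold of 39.2 under P4, rank 1294, and 54.5 with a fold of 14.9 under vehicle, rank 2896. Further PR regions followed within LSM4, 40.8 kb (88.6 under P4, 12.1 under vehicle) and 38.3 kb (35.97 and 8.92) before the JUND start. A POLR3A region of 3.17 lay at the strongest site under P4. Closer to JUND, a PR region lay 727 bp before the start (33.1 under P4, with 2.34 under vehicle) and another 1811 bp after it (10.5, with 5.64). JUND had POLR3A at its start under both treatments, with −log10 q of 2.93 under vehicle (summit 42 bp after the start) and 5.63 under P4 (summit 10 bp before it). Its highest POLR3A score under vehicle was 4.61, 3.06 kb after the start and past the end of the gene. The PR region nearest the start under P4 lay outside the printed promoter.

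JUNB was the member with no PR region among the strongest 10% of the P4 list. Its highest −log10 q was 10.5 under P4, 33.8 kb before the start in BEST2, and 6.35 under vehicle, 16.6 kb before the start in HOOK2. At its start, however, 3 lists had a region. PR under P4 covered it with a region of 1263 bp (chr19:12790460-12791722, −log10 q 3.58). POLR3A lay there with a summit 23 bp after the start under vehicle (2.81) and 26 bp after it under P4 (7.09). The highest POLR3A score under vehicle was elsewhere in the window, 41.1 kb after the start in RTBDN (4.82). The span of HOOK2 also reaches the JUNB start, so these regions cannot be assigned to 1 of the genes.

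ATF3, a stress-induced gene of the ATF family whose protein pairs with JUN proteins, differed most between the PR lists in its number of regions, 3 under vehicle and 25 under P4. At equal list length these were 3 and 7. The 3 vehicle regions lay 22.9 and 39.9 kb after the first start, within the gene span (3.38 and 2.41), and 78.5 kb after it (15.0), 23.2 kb past the span and nearest to GARIN4. All 3 had a counterpart under P4, with −log10 q of 50.2, 9.23 and 57.0. Regions in the P4 list alone included 1 at 35.1 kb after the first start, within the span (43.0), and 1 at 605 bp after it (14.3). Of the 25 PR regions under P4, 18 had ATF3 as the nearest coding gene.

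The 5 POLR3A regions of ATF3 in each list included 1 within the span 43.3 kb after the first start under vehicle (chr1:212608426-212609041, 7.05), with a counterpart under P4 (4.93) and a PR region under P4 (10.8). No region covered either of the 2 ATF3 starts of the promoter table. ATF3 is known to be transcribed from alternative promoters, and only these 2 starts were used.

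At promoters, taken as 250 bases before to 50 bases after the start, the antibodies differed in the members reached. PR covered 0 of the 7 promoters under vehicle, against 9.06% of 15812 protein-coding genes with an entry. Under P4 it covered 2, FOS and JUNB, against 27.3%. POLR3A covered 3 under vehicle, those of FOSL2, JUNB and JUND, against 20.4%. Under P4 it covered 4, those of FOS, JUN, JUNB and JUND, against 19.0%. POLR3A reached 5 of the 7 promoters in at least 1 list, against 27.4% of genes. FOSB and ATF3 had neither antibody at the starts used here, and other starts of ATF3 were not searched. These POLR3A regions had a −log10 q of 2.81 to 4.19 under vehicle and 2.97 to 7.09 under P4. The medians of the whole lists were 3.53 and 3.22. Under vehicle only the region of FOSL2 (4.19) lay above the median. Under P4 those of JUN (6.34), JUNB (7.09) and JUND (5.63) did, and that of JUNB was among the strongest 10%. The start of JUNB is also reached by the span of HOOK2. JUN and FOSL2 each had POLR3A at the start in 1 list and their highest PR score inside the gene, and no PR region at the start.

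Shared positions were common to part of the regions only. Of the 138 PR regions under P4, 30 or 21.7% overlapped a PR region under vehicle, and 29 of the 47 vehicle regions, 61.7%, overlapped 1 under P4. Over the whole lists these shares were 25.8% and 75.7%. For POLR3A, 17 of the 65 regions under P4 (26.2%) overlapped a vehicle region and 16 of the 51 under vehicle (31.4%) had a counterpart under P4, against 25.8% and 42.0% over the whole lists. Between antibodies under vehicle, 11 of the 51 POLR3A regions (21.6%) and 11 of the 47 PR regions (23.4%) overlapped the other, against 32.3% and 24.2%. Under P4, 39 of the 65 POLR3A regions overlapped PR and 36 of the 138 PR regions (26.1%) overlapped POLR3A, against 50.5% and 20.9% over the whole lists. FOS gave 13 and FOSL1 10 of those 39. With the lists of each antibody at equal length, 11 of 49 POLR3A regions under P4 overlapped PR (22.4%), against 28.2% over the whole lists cut alike. The order of windows and whole lists was thus the other way round from that in the lists as deposited. After merging, 77 of the 198 sites were in the PR P4 list alone, 25 in the POLR3A vehicle list alone, 21 in the POLR3A P4 list alone and 13 in the PR vehicle list alone.

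Genes linked to AP-1 were counted in the same way. Of 16 other genes of the same leucine zipper class, all had PR regions under P4 and 14 under vehicle, against 90.5% and 74.6% of all genes. All 16 had more under P4, and the median was 4 under vehicle and 18 in the longer list under P4. POLR3A regions were more under P4 at 11 of them and fewer at 0. JDP2, which encodes a repressor that pairs with JUN, had 7 PR regions with vehicle and 25 with P4, and ATF7 had 23 and 53. At the low end, CREB1 had 0 and 2 and MAF had 1 and 2. Of 15 kinase and serum response genes that feed into FOS and JUN, 14 had more PR regions under P4 and 1 fewer (RPS6KA3, 3 and 2), and 9 had more and 5 fewer POLR3A regions. SRF, the serum response factor, had 0 PR regions with vehicle and 13 with P4, and 5 and 4 POLR3A regions. Of 16 other immediate early genes, 15 had more PR regions under P4, and 10 had more and 4 fewer POLR3A regions. NR4A1 had 12 and 29 PR regions and 8 and 28 POLR3A regions, while DUSP2 had 2 and 2 PR regions and no POLR3A region. Of 14 genes known as AP-1 targets, 12 had more PR regions under P4, and 11 had more and 1 fewer POLR3A regions. CCND1, the cyclin D1 gene, had 9 and 24 PR regions and 7 and 17 POLR3A regions, while CXCL8 had no region in any list. These counts stand beside the 87.2% of all genes with more PR regions under P4, and the 51.3% with more and 16.2% with fewer POLR3A regions. A PR region among the strongest 10% of the P4 list lay near 11 of the 16 leucine zipper genes and 10 of the 15 kinase and serum response genes. It did so at 11 of the 16 other immediate early genes and 6 of the 14 targets, against 47.3% of all genes. Windows of neighbours such as ATF3 and BATF3 share regions.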

How the data were processed

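The submitters' processing notes name cutadapt, Bowtie2, MACS2 and hg38, with no role or order. The peak calling parameters, the control used and the way replicates were pooled are not given in the sources used here. The deposited lists give each region's fold enrichment, a ratio, its −log10 q and its summit offset, all the authors' values, which served to describe or order the regions of a list. They hold no counts, so depth and the precision it gives are unknown. Groups came from the sample labels.

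Regions on chromosomes 1 to 22 and X were joined to RefSeq gene spans and promoters (GRCh38.p14) with Python 3.11.15 and pandas 2.3.3. A region was counted when it reached the span or the 50 kb on either side by at least 1 bp. Regions of different lists were shared from an overlap of 1 bp. Exons and a genome sequence were not used here. The code found the planted number of regions in 200 of 200 simulated windows, and bedtools 2.31.1 gave the same overlap counts in 4 of 4 comparisons. All 8 genes were named, with their strongest region per list, the regions at their starts, and all regions where a list had 3 or fewer. Alternatives were a −log10 q of at least 5 or 10, lists of equal length, windows of 10 or 100 kb, summits in the window, nearest gene and reciprocal overlap of 50%. The genes and lists were chosen with earlier results of these data known. No test was made.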

Additional observations from a re-analysis of the deposited data

How the results depend on the processing

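As reported, the windows held 47 and 138 PR regions (vehicle, P4) and 51 and 65 POLR3A regions. Overlaps were 30 (PR P4 with PR vehicle), 17 (POLR3A P4 with vehicle), 11 (POLR3A with PR, vehicle) and 39 (POLR3A with PR, P4), and the values below follow that order. At a −log10 q of at least 5 they were 21, 61, 6 and 10 regions with overlaps of 18, 2, 1 and 4, and 4 genes kept a POLR3A region under vehicle. At a −log10 q of at least 10 they were 9, 31, 1 and 2, with overlaps of 9, 1, 0 and 1, and 1 and 2 genes had a POLR3A region under vehicle and P4. With 10 kb on each side they were 19, 64, 22 and 24, with overlaps of 14, 8, 4 and 15. With 100 kb they were 74, 229, 84 and 118, with overlaps of 47, 28, 20 and 65. Where the member had to be the nearest coding gene they were 23, 74, 20 and 33, with overlaps of 14, 8, 4 and 22. A reciprocal overlap of 50% left overlaps of 19, 6, 2 and 11. Lists of equal length gave 47, 39, 51 and 49, with overlaps of 20, 12, 11 and 11, and a P4 to vehicle ratio of 0.830 for PR and 0.961 for POLR3A. In the other settings that ratio was 2.90 to 3.44 for PR and 1.09 to 2.0 for POLR3A. Requiring the summit in the window moved no count past 1.5 times. Limiting the background to the 14100 genes no longer than ATF3, a choice made after seeing the data, gave 73.7%, 89.6%, 69.8% and 73.0% of genes with a region.

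The replicates share 1 list per group, so leaving out each in turn was not run. No paired analysis was possible because the lists carry no replicate numbers. Depth limits all counts, since a deeper library gives a longer list, and it is unknown here.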
